A study of Rattus norvegicus with 6 samples.

Results

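Chromosomal DNA is copied by a small set of enzymes. The polymerase α-primase complex (*Pola1* and *Pola2*, with the primase subunits *Prim1* and *Prim2*) lays down a short RNA-DNA primer at the origin and at the start of each lagging-strand fragment. Polymerase ε (*Pole*, *Pole2*) and polymerase δ (*Pold1*, *Pold2*) then extend the leading and the lagging strand, held on the DNA by the ring-shaped sliding clamp PCNA, and the flap endonuclease FEN1 trims the primers so that the fragments can be joined. Most β-cells of an adult islet are out of the cell cycle, and PCNA is in wide use as a marker of cells that have entered it. The members described here are these 10 genes, taken as the spots that are no controls and whose gene name in the array files equals 1 of the 10 symbols. All 10 were found, on 12 probes, among 27103 gene names on 45598 probes.

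The samples were β-cells of young adult male Wistar rats, sorted as large, granular cells positive for Newport Green, a dye that binds zinc, after overnight culture of whole islets with the thymidine analogue EdU. In each of 3 islet preparations, pooled from 4 rats, the EdU-positive cells gave the "replicating" sample and the EdU-negative cells the "quiescent" sample, so that each group held 3 samples and both groups shared culture, EdU, fixation and sorting. EdU marks every cell that made DNA during the labelling, including cells that had since left S phase. RNA was amplified before Cy3 labelling and hybridized to 1-colour Agilent arrays, 6 in all. The paper reports far fewer cells and less RNA for the replicating than for the quiescent fraction. Input before amplification thus went with the group, and its part in the results was not tested. Values are the log2 values that the authors deposited, and a log2 ratio is replicating over quiescent within a preparation. A probe is called higher or lower where its log2 ratio is 1 or more in size and limma's unadjusted p is at most 0.05. The limma fit was blocked on preparation. Both thresholds are those of the study, which reports more calls, and more of them higher than lower. The counts below come from the fit made here.

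The quiescent arrays were not alike. Over all probes Pearson's r was between 0.967 and 0.986 among the replicating arrays, but 0.647 between quiescent arrays 2 and 3, and quiescent array 2 had no r above 0.822 with any other array. Quiescent array 3 had r values of 0.943 to 0.968 with the replicating arrays. Between 80.8% and 98.4% of probes were well above background, and no spot was saturated. Of all probes, 4.38% were called higher and 4.14% lower, and the counts of markers below stand beside these shares. β-cell markers were well above background on all 6 arrays (9 of 9 genes), and of these 1 was called lower (*Mafa*, a β-cell transcription factor, at a log2 ratio of -1.01) and 0 higher, with a summed level, on the unlogged scale, of 250300 to 318900 on the replicating and 157300 to 350500 on the quiescent arrays. Of the fibroblast and stellate cell markers 5 of 12 were called higher, *Col3a1* at 3.07, and their summed level was between 14990 and 42400 on the replicating and between 6105 and 6835 on the quiescent arrays. Alpha cell markers were called higher for 2 of 8 genes (*Gcg* at 2.39 and *Gc* at 1.86), with summed levels of 45320 to 107800 against 9125 to 40660. Delta and PP cell markers were called higher for 3 of 5 genes (5813 to 10500 against 3991 to 7094) and macrophage and leukocyte markers for 2 of 8 (5752 to 10180 against 3834 to 12980). Acinar cell markers were called higher for 1 of 8 genes (7903 to 83520 against 4125 to 43740), duct cell markers for 1 of 8 (24390 to 28510 against 26730 to 40750) and endothelial cell markers for 0 of 8 (5244 to 10370 against 6236 to 16210). Each marker was well above background on at least 1 array, and the part of these cells in the results below was not tested. In such pools, fewer cells of a type and less RNA per cell cannot be told apart.

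What each array read for a gene is the signal of a 60-base probe. The probes of the 2 subunits of polymerase α, of the primase subunit *Prim1* and of the catalytic subunit *Pold1*, and the 3 probes of *Pole*, whose readings differed, are given 5′ to 3′ as in the array files, in lower case. Each of these has at least 1 reading frame without a stop codon.
Pola1: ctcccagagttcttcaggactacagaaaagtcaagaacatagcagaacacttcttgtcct
Pola2: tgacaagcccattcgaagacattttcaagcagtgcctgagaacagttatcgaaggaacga
Prim1: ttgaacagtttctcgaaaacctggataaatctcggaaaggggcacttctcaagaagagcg
Pold1: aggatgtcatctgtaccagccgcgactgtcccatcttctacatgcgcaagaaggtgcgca
Pole, probe 1: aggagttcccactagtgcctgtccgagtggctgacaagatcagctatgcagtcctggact
Pole, probe 2: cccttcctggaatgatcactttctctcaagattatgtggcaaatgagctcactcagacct
Pole, probe 3: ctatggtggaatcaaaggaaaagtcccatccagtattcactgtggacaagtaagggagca
Of the *Pcna* probe the first 30 bases are shown, which end in a stop codon of the first reading frame, in capitals.
Pcna: cccaagatcgaagatgaagaaggatctTAG
The files place the probes on the rat build rn4. The *Pold1* probe covers 373 bases of chromosome 1 and *Pole* probes 2 and 3 cover 191 and 745 bases of chromosome 12, stretches longer than the probe itself, while each of the other 9 covers 60 bases.

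All 10 genes had a log2 ratio above 0, from 0.41 for *Pole* to 2.88 for *Prim1*, with a median of 1.67, or 1.92, 2.29 and 1.13 in preparations 1, 2 and 3. The median over all probes was -0.08. Of the 10 genes, 7 were called higher (*Pola2*, *Prim1*, *Prim2*, *Pold1*, *Pold2*, *Pcna* and *Fen1*) and 0 lower, where 4.38% of all probes were called higher and 4.14% lower, or 4.2% and 4.64% of all named genes by their brightest probe. The split of all calls moved with scaling: 1997 probes were called higher and 1887 lower here, but 647 and 3071 when the processed signal was divided by the 75th percentile of its array, where 5 of the 10 genes were called higher. On 8 genes every replicating array lay above every quiescent array, against 8.89% of all probes. It follows that these 8 had a ratio above 0 in all 3 preparations, which held for 15.4% of all probes. *Pola1* and *Pole* did not. None of the 10 had an adjusted p under 0.05 in limma after Benjamini-Hochberg adjustment across the whole array, a threshold that 0% of all probes passed and 9.38% passed unadjusted. The adjusted p lay between 0.306 and 0.608. Without preparation 1, 3 genes were called higher (*Pola2*, *Prim1* and *Fen1*), and without preparation 2, which holds the quiescent array that stands apart, 9 were. Of all 45598 probes, 509 and 1449 were called higher in these fits in turn.

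**Figure D1:**
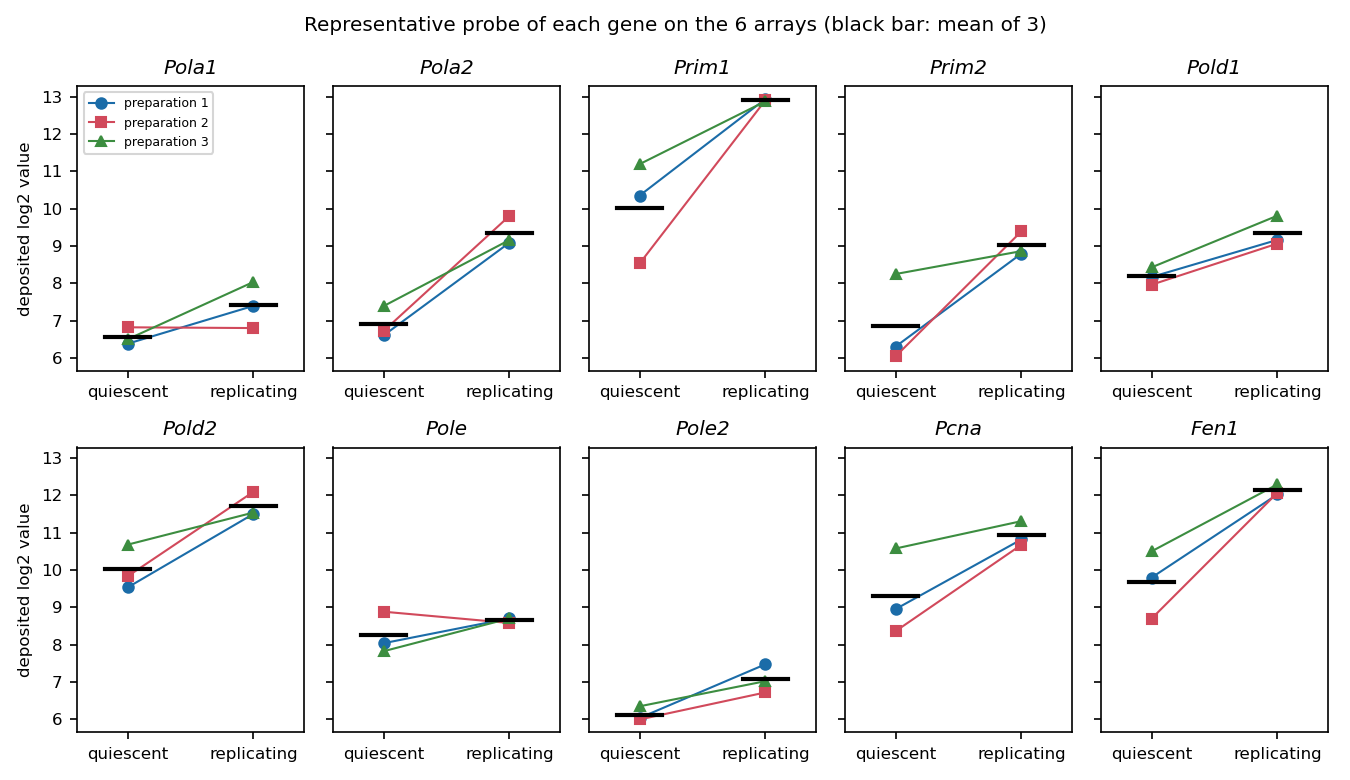
Deposited log2 value (y axis) of the brightest probe of each of the 10 genes on the quiescent and replicating arrays, 1 panel per gene, with lines joining the arrays of 1 islet preparation and black bars at the mean of 3. On 8 genes the groups do not overlap, and on *Pola1* and *Pole* the line of preparation 2 is level or falls.

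Both primase subunits were called higher. *Prim1*, the catalytic subunit that makes the RNA primer, is measured on chromosome 7 from 1321717 to 1321776. In preparation order 1, 2, 3, kept below for every gene, its replicating log2 values were 12.94, 12.91 and 12.87 and its quiescent values 10.35, 8.53 and 11.19. The replicating arrays were nearly level, with 12.91 ± 0.03 (SD, n = 3), and the quiescent arrays spread widely, with 10.02 ± 1.36 (SD, n = 3). *Prim1* was 7.37-fold higher (95% interval 2.65 to 20.5); on the log2 scale the ratio was 2.88 with a standard error of 0.58 (adjusted p = 0.483 in limma). *Prim2*, the regulatory subunit that helps to start and hand over the primer (chromosome 9, 32206278 to 32206337), read 8.80, 9.39 and 8.86 on the replicating and 6.30, 6.04 and 8.25 on the quiescent arrays. Quiescent array 3 stood close to the replicating arrays here, and the ratios of the preparations were 2.49, 3.35 and 0.61. The estimate was 4.44-fold (95% interval 1.57 to 12.6, adjusted p = 0.483 in limma). Without preparation 2 the log2 ratios were 2.14 for *Prim1* and 1.55 for *Prim2*, and both were still called. Without preparation 1 *Prim2* was not called, at a log2 ratio of 1.98.

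The 2 subunits of polymerase α itself read differently. *Pola2*, the accessory subunit that tethers the catalytic chain, had values of 9.09, 9.81 and 9.16 on the replicating and of 6.60, 6.72 and 7.39 on the quiescent arrays, from a probe on chromosome 1 (208579307 to 208579366). The lowest replicating array lay 1.70 above the highest quiescent array. The gene was 5.45-fold higher (95% interval 2.75 to 10.8, adjusted p = 0.306 in limma), the smallest of the 10. *Pola1*, the catalytic subunit that extends the RNA primer with DNA, lies on chromosome X and was measured from 80651404 to 80651463. It read 7.40, 6.80 and 8.04 on the replicating and 6.38, 6.82 and 6.50 on the quiescent arrays. The groups overlapped through preparation 2 alone, whose ratio was -0.02, against 1.01 and 1.54 in the others. The log2 ratio of 0.84 (95% interval -0.22 to 1.91) was not called (adjusted p = 0.484 in limma). Without preparation 2 it was 1.28 and was called. The intervals of *Pola1* and *Pola2* overlap, and the difference between them was not tested.

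Both subunits of polymerase δ were called higher. *Pold1*, the catalytic subunit with its own proofreading exonuclease (chromosome 1, 95010792 to 95011164), had replicating values of 9.16, 9.06 and 9.81 and quiescent values of 8.17, 7.96 and 8.43. Its ratios of 0.99, 1.10 and 1.38 were the most even of the 10 representative probes, with an SD of 0.20 over the preparations. The estimate was 2.23-fold (95% interval 1.28 to 3.91, adjusted p = 0.483 in limma). *Pold1* also lay nearest to the threshold on its called side, and it was no longer called without preparation 1 or without preparation 3. *Pold2*, the accessory subunit (chromosome 14, 86535758 to 86535817), read 11.51, 12.10 and 11.54 on the replicating and 9.54, 9.83 and 10.68 on the quiescent arrays. Its 3.25-fold difference (95% interval 1.58 to 6.65, adjusted p = 0.483 in limma) was made of ratios of 1.97, 2.26 and 0.86. It was not called without preparation 1.

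Polymerase ε gave the least clear readings. *Pole*, the catalytic subunit, is covered by 3 probes on chromosome 12 that did not read alike. Probe 1, the brightest (46502794 to 46502853), read 8.71, 8.58 and 8.71 on the replicating and 8.04, 8.89 and 7.83 on the quiescent arrays. Quiescent array 2 was the highest of the 6, and the log2 ratio of 0.41 (95% interval -0.56 to 1.39) was not called (adjusted p = 0.608 in limma). Probe 2 (46494396 to 46494586) read 7.75, 7.49 and 7.46 against 6.23, 6.34 and 6.18. Here the groups were separate with an even ratio of 1.51, 1.15 and 1.28, and the probe was called higher at 2.49-fold (95% interval 1.43 to 4.34, adjusted p = 0.483 in limma). Probe 3 (46496355 to 46497099) resembled probe 1, with 7.11, 6.78 and 6.61 against 6.16, 6.89 and 6.03 and a log2 ratio of 0.48 (95% interval -0.45 to 1.40). Probes 2 and 3 rose well above background on all replicating arrays but on 2 of 3 quiescent ones, and probe 1 on all 6 arrays. Before normalization, probe 2 read 89.1 on replicating and 122 on quiescent array 2. With the median over the 3 probes taken on each array, *Pole* was called higher at a log2 ratio of 1.13. *Pole2*, the accessory subunit that ties the polymerase to the helicase (chromosome 6, 91159505 to 91159564), read 7.48, 6.72 and 7.03 on the replicating and 6.04, 6.00 and 6.35 on the quiescent arrays. On the quiescent side 1 array of 3 read it well above background, so that its quiescent level is weakly measured; the other 9 genes were well above background on all 6 arrays by their brightest probe. The groups did not overlap and the 95% interval of the log2 ratio, 0.07 to 1.82, lay above 0, but the ratio of 0.95 fell short of 1 and the gene was not called (adjusted p = 0.483 in limma).

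*Pcna* and *Fen1* were called higher. The sliding clamp *Pcna* (chromosome 3, 120008997 to 120009056) had values of 10.82, 10.68 and 11.31 on the replicating and 8.96, 8.36 and 10.58 on the quiescent arrays. Quiescent array 3 came within 0.10 of the lowest replicating array, and the ratios were 1.87, 2.31 and 0.73. Over the 3 preparations *Pcna* was 3.11-fold higher (95% interval 1.47 to 6.59, adjusted p = 0.483 in limma). Without preparation 1 it was not called. *Fen1*, on chromosome 1 from 212688202 to 212688261, was read by 10 spots of 1 probe, which differed among themselves by an SD of 0.07 to 0.24 on the log2 scale on each array. It read 12.03, 12.07 and 12.30 on the replicating and 9.80, 8.70 and 10.50 on the quiescent arrays. The gap was 5.52-fold (95% interval 2.61 to 11.7, adjusted p = 0.352 in limma), with ratios of 2.23, 3.37 and 1.79. Before normalization between arrays, the mean intensity of the *Fen1* spots was 4510, 2711 and 7417 on the replicating and 835, 635 and 2027 on the quiescent arrays, so the direction stood in the raw signals of each preparation. In preparation 2, where quiescent array 2 was the brighter array (median signal 557 against 196), the raw signals of 4 genes ran the other way. They were 53.7 on the replicating and 207 on the quiescent array for *Pola1*, 296 and 447 for *Pold1*, which was called higher, and 52.7 and 63.1 for *Pole2*, and all 3 probes of *Pole* were also lower on the replicating array.

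**Figure D2:**
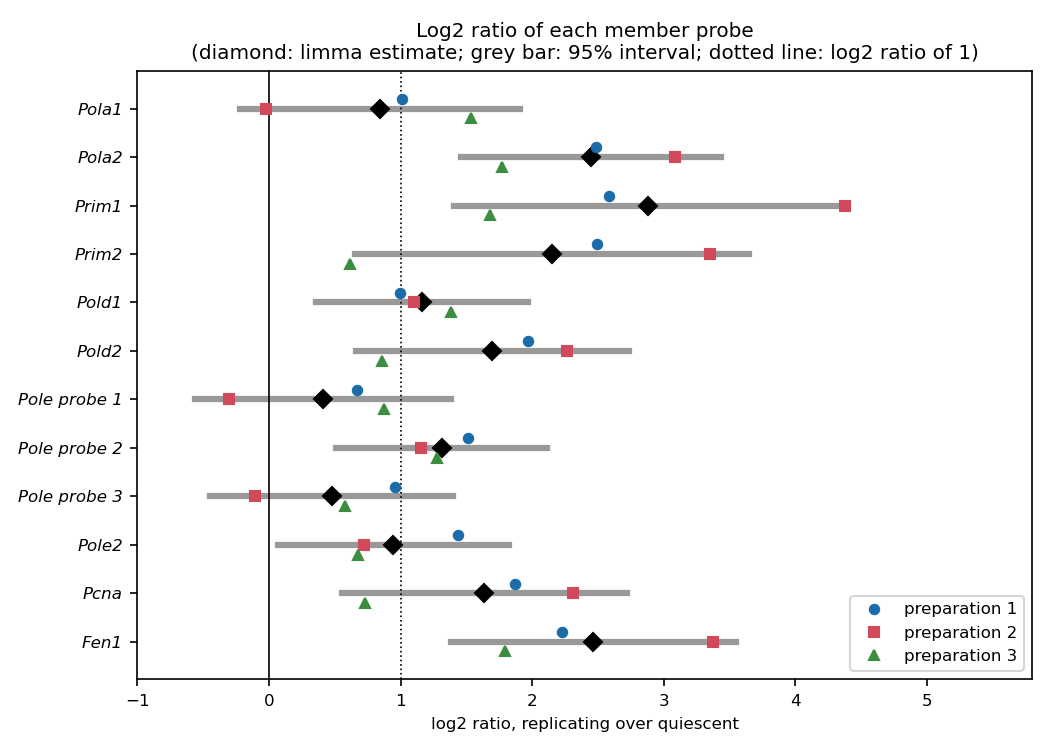
Log2 ratio of replicating over quiescent cells (x axis) for each of the 12 probes, with the 3 islet preparations as coloured marks, the limma estimate as a diamond and its 95% interval as a grey bar; the dotted line is a log2 ratio of 1. *Prim1*, *Fen1* and *Pola2* lie farthest to the right, and the 3 *Pole* probes lie at 0.41, 1.32 and 0.48.

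Quiescent array 3 was the highest of the 3 quiescent arrays on 8 of the 10 genes (*Pola1* and *Pole* being the others), where it was the highest on 37.4% of all probes. Quiescent array 2 was the lowest on 6 genes, against 40.1% of all probes. In preparation 3 the ratio was the smallest of the 3 preparations for *Pola2*, *Prim1*, *Prim2*, *Pold2*, *Pole2*, *Pcna* and *Fen1*. Over the 6 arrays, Pearson's r between a gene and the mean of the other 9 was between 0.886 and 0.982 for 8 genes, 0.657 for *Pola1* and 0.239 for *Pole*; these arrays share the group difference. Among 21564 other genes well above background on all replicating arrays, those most like the mean of the 10 over the 6 arrays were *Anp32e* (r = 0.996), *Thoc7* (r = 0.995), *Nt5dc2*, *Prdx4* and *Vasn* (each r = 0.994). They are the top of a ranking of 21564 genes over 6 arrays, a search that returns high r values by itself. A link between them and the 10 genes was not tested.

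The other genes of the fork were read from a list of 39, of which 38 are on the array under that name. Of these, 17 were called higher and 0 lower, against 4.38% and 4.14% of all probes. Their median log2 ratio was 0.94, and 35 had a ratio above 0. All 6 subunits of the MCM helicase were called, from 1.16 for *Mcm2* to 3.60 for *Mcm5*. So were its partners *Cdc45* (3.14), *Gins1* (1.31), *Gins3* (1.94) and *Gins4* (1.67), but not *Gins2* (0.91). Of the clamp loader, which opens the PCNA ring, *Rfc3* (3.17) was called and the other 4 subunits were not. Of the alternative loader, *Chtf18* (1.74) and *Dscc1* (2.82) were called and *Chtf8* (-0.13) was not. *Timeless* (2.53) and *Wdhd1* (1.50), which link polymerases and helicase, were also called. So were *Rnaseh2a* (1.40), which removes RNA from DNA, and *Rpa1* (1.20), which covers single strands. Their partners *Tipin* (0.60), *Rnaseh2b* (0.39), *Rnaseh2c* (1.13), *Rpa2* (0.81) and *Rpa3* (0.19) were not called. The smaller subunits of the polymerases, picked out after their values were seen, were not called either. *Pold3* stood at -0.25, *Pold4* at 0.78 and *Pole3* at 0.87, and *Pole4* was not well above background on any replicating array. *Lig1*, the ligase that seals the fragments FEN1 has trimmed, stood at 0.71, not called, and was also picked afterwards. Without preparation 1, 9 genes of this list were called, and 509 of all 45598 probes were called higher.

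Of 21 genes whose products bind, modify or act with PCNA, 16 were on the array, 6 were called higher and 0 lower, with a median log2 ratio of 0.69. *Parpbp*, which restrains recombination at PCNA, had the largest ratio at 3.51, from a probe well above background on 1 of 3 quiescent arrays. *Dtl*, which marks PCNA-bound proteins for destruction, followed at 3.15, with *Usp1* (2.11), which removes ubiquitin from PCNA, and *Rad18* (1.63), which adds it. *Cdkn1a*, the p21 inhibitor that binds PCNA, was called at 1.91 and *Xrcc1* at 1.54. The lowest ratios were those of *Ung* (-0.84) and *Exo1* (-0.79), neither of them called. On *Ung* the replicating arrays all lay below the quiescent arrays, which held for 7.11% of all probes. The margin was narrow, with a highest replicating value of 8.50 and a lowest quiescent value of 8.51. Its ratios were -0.05, -2.20 and -0.26 in preparations 1, 2 and 3. Of 15 polymerases and partners that work in repair, lesion bypass, mitochondria or antigen receptor genes, 2 were called higher and 0 lower, with a median log2 ratio of 0.32. These were *Polh* (2.12), which copies past ultraviolet damage, and *Primpol* (2.06), which re-primes stalled forks. *Rev1* (0.96) and *Rev3l* (0.94) came next and were not called, and *Polm* (-0.49) and *Mad2l2* (-0.45) were the lowest. The shares called higher were 70%, 44.7%, 37.5% and 13.3% for the 10 genes and these 3 lists in turn. Of all probes, 4.38% were called higher and 4.14% lower. Their difference was not tested.

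**Figure D3:**
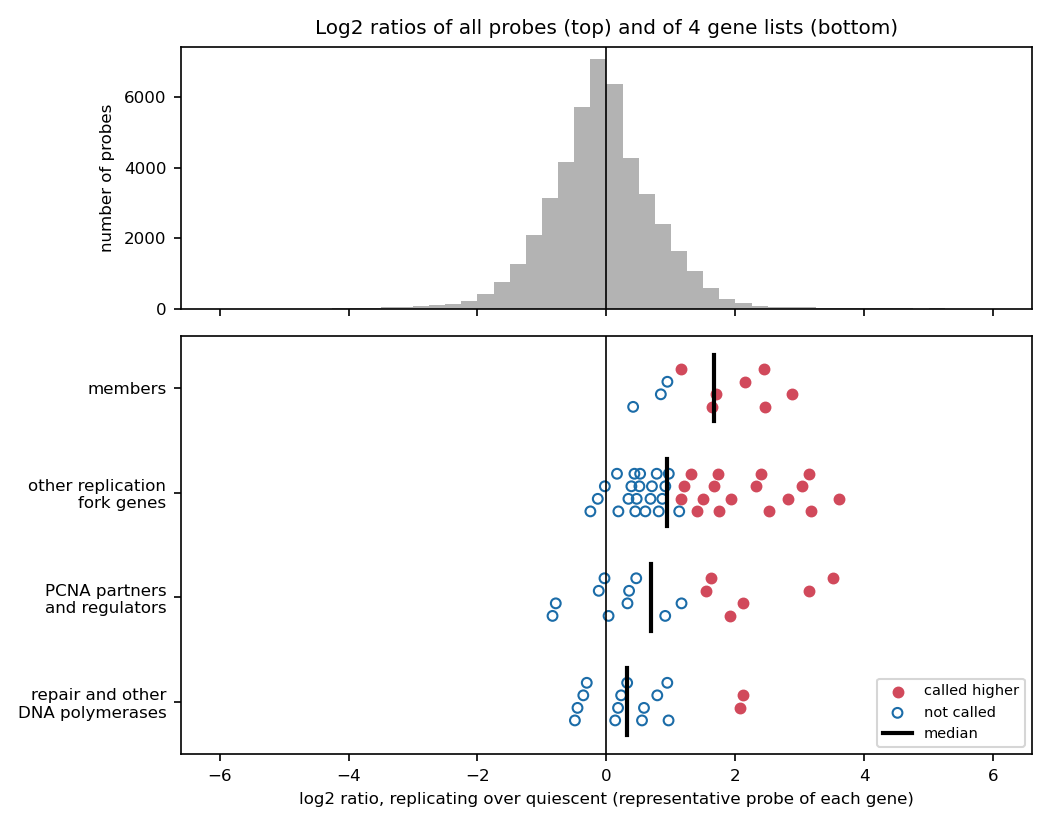
Top, number of probes by log2 ratio of replicating over quiescent cells (same x axis as below) for all 45598 probes; bottom, log2 ratio of the representative probe of each gene in 4 lists, filled where called higher, with a black bar at the median. The medians are 1.67 for the 10 genes, 0.94 for the other fork genes, 0.69 for PCNA partners and 0.32 for the other polymerases.

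Promoters of the 10 genes were searched for short motifs linked to cell-cycle genes, on both strands, in 250 bases before and 50 after each gene's start in RefSeq on build GRCr8; all 10 matched by symbol. The letters searched were TTCCCGC and TTGGCGC for E2F, CCAAT for the CCAAT box and TTTGAA for the cell-cycle homology region, CHR. The reverse of TTGGCGC shares CCAA with the CCAAT box where a T follows it. An E2F motif of either form was found in *Pola1*, *Prim1*, *Pole* and *Pole2*, 4 of 10, and in 6.26% of 33469 promoters of the same length. CCAAT was found in 6 of 10 and in 37.5% of all promoters, and TTTGAA in 1 (*Pole2*) and in 18.3%. *Pola1*, not called, held 4 E2F matches, the most of the 10. *Pola2*, *Prim2* and *Fen1*, all called, held no exact match to any of the 4. Only exact copies of these letters were counted, so near forms of a site were missed. A link between motifs and calls was not tested. The 100 bases before the start of *Pola1* and of *Pold2*, which held 4 CCAAT boxes, are shown 5′ to 3′ on the gene's strand, with matches in capitals.
Pola1 (GRCr8, chrX:62342356-62342455, minus strand): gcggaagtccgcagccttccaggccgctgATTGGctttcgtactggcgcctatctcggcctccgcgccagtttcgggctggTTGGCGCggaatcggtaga
Pold2 (GRCr8, chr14:84969097-84969196, minus strand): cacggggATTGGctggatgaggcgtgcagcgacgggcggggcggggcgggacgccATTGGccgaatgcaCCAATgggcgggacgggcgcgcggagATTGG

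**Figure D4:**
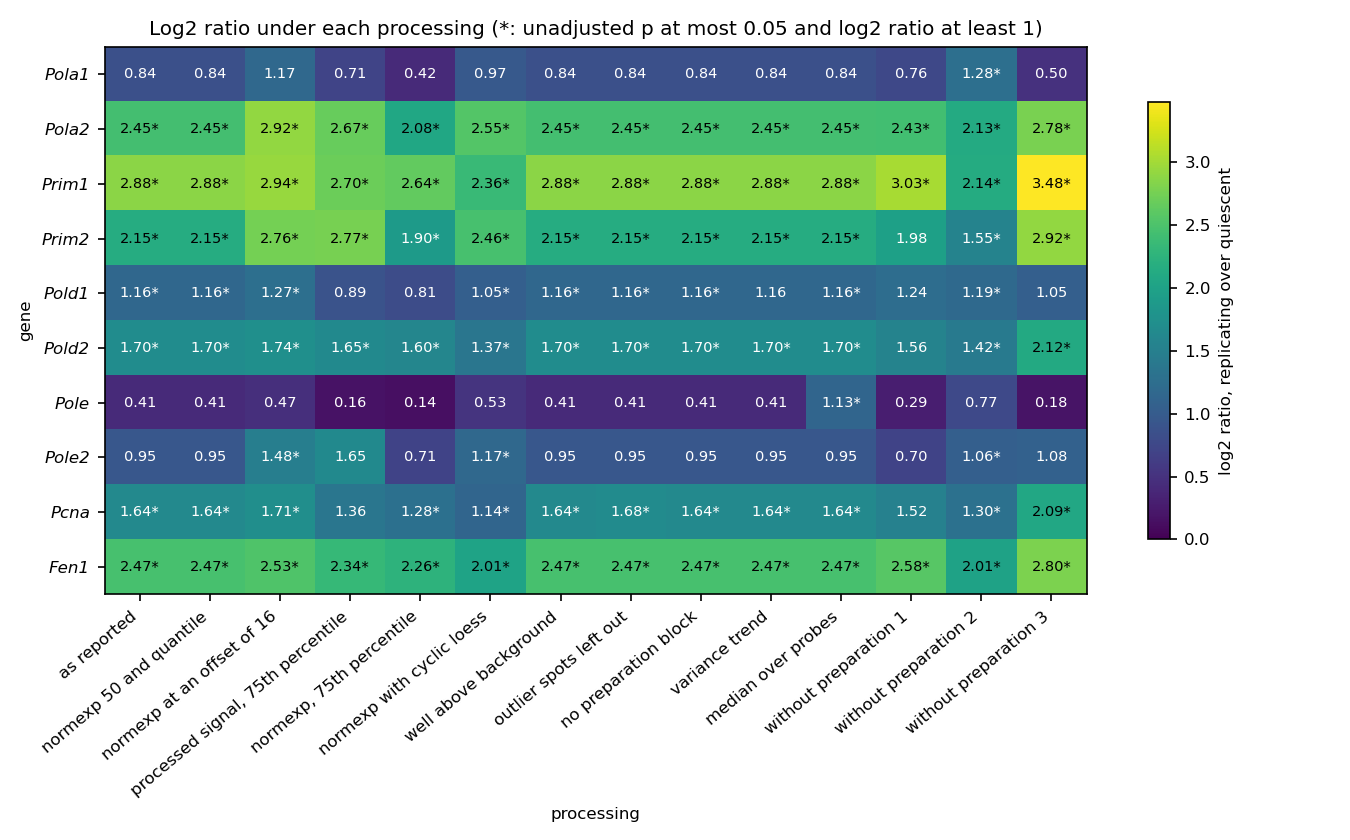
Log2 ratio of replicating over quiescent cells for each of the 10 genes (rows) as reported and under 13 other ways of processing (columns), with a star where the gene was called. *Pola2*, *Prim1* and *Fen1* carry a star in every column, and no value is below 0. The columns for the authors' normalization computed again, the filter on dim probes, the variance trend and no block repeat the reported ratios.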

How the data were processed

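Replicating and quiescent β-cells from 3 islet preparations were hybridized to 6 1-colour arrays on 1 slide, read in 1 scan. Per the labels the reading software was Agilent Feature Extraction, version 10.7.3.1, and the authors deposited each spot's intensity, not normalized between arrays, with probe positions on rn4. A second deposited table holds spot-wise log2 values, made by the authors with normexp background correction and quantile normalization, and gave the main values here. Normexp at an offset of 50 with quantile normalization, computed here, differed from them by at most 0.000245, over probes. Control spots (4259 of 62976) were left out and the spots of a probe averaged, outlier spots included, which gave 45598 probes. Quantile normalization gives all arrays the same distribution, so a shift shared by most probes is removed.

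limma 3.58.1 (R 4.3.3, data.table version 1.17.8) was fitted to all probes blocked on preparation, which is the design the methods give, and p adjusted by Benjamini-Hochberg over all probes. The pairing comes from the labels and methods; the 2 arrays of a preparation deviated from their own groups' means with r values of 0.0552, 0.233 and 0.252. A probe with at least 1 of every 2 of its spots marked well above background was taken as such. A gene was represented by its brightest probe over all 6 arrays. Genes named are the 10 members and the 5 most like them. Of each other list, the called genes and at most 4 at its extremes are named. *Pold4*, *Pole3*, *Pole4*, *Lig1* and the uncalled partners of called fork genes were added after their values were seen. The members and lists were chosen with earlier results of these data known, and with 3 samples a group the number of arrays limits precision. The fit was tested on simulated data. Alternatives were normexp at offsets of 50 and 16, the processed signal or normexp values scaled to the 75th percentile, cyclic loess, a filter on dim probes, outlier spots left out, the median over a gene's probes, a variance trend, no block, and each preparation left out.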

Additional observations from a re-analysis of the deposited data

How the results depend on the processing

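The 10 genes kept a log2 ratio above 0 under all 13 alternatives, and *Pola2*, *Prim1* and *Fen1* were called higher under each. Some alternatives could not change a sign. The authors' normalization computed again, the filter on dim probes, the variance trend and no block gave the 10 genes the ratios as reported. All of these but the variance trend, which did not call *Pold1*, repeated the calls of the 10 genes as well. Outlier spots left out changed only the ratio of *Pcna*, and the median over a gene's probes only that of *Pole*. Leaving out a preparation could not turn the sign of the 8 genes with a ratio above 0 in all 3 preparations. For all 10 genes, only the offset of 16, the scalings to the 75th percentile and cyclic loess test the sign. The median of the 10 genes lay between 1.27 and 2.10 and 0 were called lower. Without the replicate block the same 7 of the 10 were called. Leaving out a preparation gave 3 to 9 of the 10 genes, 9 to 18 other fork genes, 1 to 5 other polymerases and 3 to 7 PCNA partners (that last set of alternatives was added after the data were seen), and 509 to 4940 probes called higher in all. The low end of each came without preparation 1. Of the members, 2 passed an adjusted p of 0.05 in limma with normexp scaled to the 75th percentile (*Prim1* and *Fen1*). With cyclic loess 2 passed (*Pola2* and *Prim1*). Of all 45598 probes, 312 and 221 passed in these settings in turn, against 0 as reported. The processed signal scaled to the 75th percentile called 10 other fork genes and 647 probes higher in all. That scaling moved the median of all probes to -0.74 and that of normexp values to -0.41, so the members stood 2.39 and 1.85 above it. The share of calls that were higher was 51.4% as reported, 17.4% and 21.2% under these scalings, 68% without the block, and 88.7% and 64.1% without preparations 1 and 2. *Pold1* was called under 8 alternatives, *Pcna* under 11 and *Pole2* under 3. The causes were not tested. Dim probes limit *Pole2* and 2 of the 3 *Pole* probes. *Pola1* on replicating array 2 and quiescent array 3, and *Prim2* on quiescent arrays 1 and 2, were also dim. They read near the lowest value well above background. At an offset of 16 the log2 ratios were 1.17 for *Pola1* and 2.76 for *Prim2*, against 0.84 and 2.15 as reported.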
